A study of Danio rerio with 4 samples.

Results

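The genes described here build cilia and carry cargo in them. They were chosen by name from the gene symbols of the authors' deposited comparison: subunits of intraflagellar transport (ift), Bardet-Biedl syndrome genes (bbs) and arl6, the small GTPases arl3 and arl13 with rp2, the kinesin and dynein motors kif3, kif17 and dync2, the transition zone genes nphp, rpgr, mks1, b9d, tctn and cc2d2a, numbered centrosomal genes (cep), the tubby family and the rp1 family. The name rule found 82 genes with 168 transcripts, of 26355 genes with 46226 transcripts in all. The rule itself uses names and no measured value, but it was chosen with earlier results of these data known.

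Retinas were dissected from zebrafish embryos 48 hours after fertilization, and their polyadenylated RNA was sequenced in 2 groups of 2 biological replicates. Retinas of the id2aMO group came from animals given a morpholino against id2a, and retinas of the Id2aMM group from animals given the control morpholino, so both groups carry a morpholino. Morpholinos are synthetic antisense oligomers that pair with an RNA and hinder its translation or its splicing. Per the labels, 1 microgram of total RNA was used per condition. They give no strain, no number of animals per library and no type of block, and the whole retina with all its cell types was sampled at a single age. The Id2a protein has a helix-loop-helix domain but no basic region to bind DNA with.

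A cilium is a microtubule axoneme that grows from a centriole and is closed off from the cytoplasm by a transition zone. Intraflagellar transport trains of IFT-B and IFT-A move along it, outward on kinesin-2 and back on dynein-2, while the BBSome, a coat made of BBS proteins, takes membrane proteins out of it. In the retina the outer segment of each photoreceptor is a modified cilium: opsin and the other phototransduction proteins reach it through the connecting cilium, and human mutations in many of these genes cause retinal degeneration. Dividing progenitors also use centrosomal proteins to copy and separate their centrioles.

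Libraries held 42980929 and 54710062 counts of alignments in id2aMO retinas, against 50230438 and 53652256 in Id2aMM retinas. The cilium genes took 0.161% and 0.188% of these counts in id2aMO retinas and 0.262% and 0.217% in Id2aMM retinas. The id2a transcript itself was at 41.6 and 36.8 CPM in id2aMO retinas and at 32.7 and 20.8 CPM in Id2aMM retinas, and did not pass the test (log2 fold change 0.55, SE 0.27, adjusted p = 0.231 by edgeR). Since the labels do not say how the morpholino acts, this level does not check them. CPM values are counts scaled to the size of the library and normalised across libraries (TMM), a fold change is id2aMO over Id2aMM on the log2 scale, and a gene was called when at least 1 of its transcripts had an edgeR adjusted p under 0.05. A gene is given by its transcript with the smallest p, and the SE of a fold change is worked out from the test statistic. The labels call the 2 libraries of a group biological replicates. With so few, p-values and SE rest on each transcript's own spread combined with a spread estimated across all transcripts.

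Of the 82 cilium genes 81 were tested, and 17 were called. Of these 16 fell in id2aMO retinas and 1, CEP152, rose, while 64 did not pass. Among all 20875 genes tested 8.06% were called, 5.70% in the downward and 2.37% in the upward direction, against 19.8% and 1.23% of the cilium genes. The median log2 fold change was −0.39 over the 81 cilium genes and −0.06 over all genes tested. With the most abundant transcript of each gene in place of the one with the smallest p, these medians were −0.31 and −0.04. Per transcript, 32 of 164 tested were called, 31 of them lower, where 7.03% of all transcripts were called. Transcripts of 1 gene can share reads and are not independent: TULP1 (2 of 2) gave 6 of the 32 and TULP2 gave 5.

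Both id2aMO libraries lay below both Id2aMM libraries for 41 of the 81 cilium genes (50.6%), beside 33.9% of all genes. The opposite separation was found for 14 of them (17.3%), beside 31.8% of all genes. At an unadjusted p under 0.05 there were 24 lower and 5 higher cilium genes. The share of all genes at this unadjusted threshold is not given, and the p of a gene is the smallest of its transcripts. These counts, and the unadjusted counts of other lists below, therefore cannot be read alone. In bulk retina, fewer cells of a type and less RNA of a gene per cell cannot be told apart.

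The number of calls depended on single libraries. Without Id2aMM replicate 1 edgeR called 0 cilium genes and 0 of all genes, with 27 cilium genes at an unadjusted p under 0.05 and a smallest adjusted p among them of 0.159. Without Id2aMM replicate 2 only KIF3C (1 of 2), TULP2 and TULP1 (2 of 2) were still called. Calls of cilium genes were also lost without either of the id2aMO libraries. The number of calls among all genes changed between these fits too, so the counts of cilium genes cannot be read alone. Each of these fits leaves 1 library in 1 of the groups. The direction of each of the 17 called genes was the same in all 4 of these fits.

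**Figure D1:**
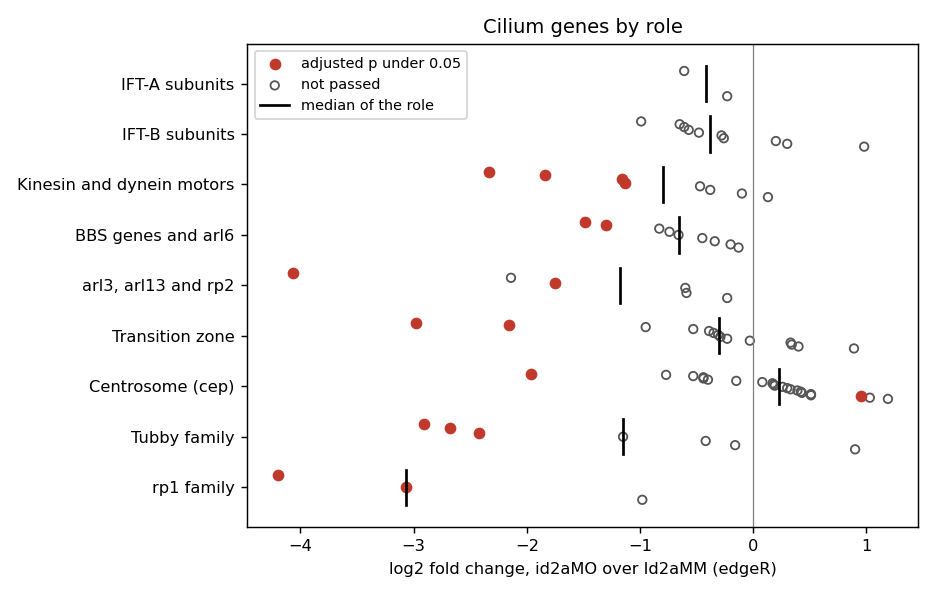
Log2 fold change of id2aMO over Id2aMM retinas (x axis, edgeR) for the 81 tested cilium genes, 1 point a gene, in rows by role; filled points passed an adjusted p of 0.05, open points did not, and a black bar is the median of the role. The rp1 family has the lowest median, −3.07, and the numbered centrosomal genes are the 1 row with a median above 0, 0.22.

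Of 8 tested motor genes 4 fell (50%, beside 5.70% of all genes), all of them kinesin-2 genes, and 0 rose. The 4 include kif3a and KIF3A (1 of 2), which the files list as separate genes on chromosome 14, while the RefSeq list of zebrafish genes (GRCz12tu, another build) holds 1 kif3a gene, also on chromosome 14. Whether they are parts of 1 locus was not tested, and if so the count is 3. The transcript of the kinesin-2 motor subunit gene kif3a (ENSDARG00000087538) with the smallest p stood at 16.5 and 15.8 CPM in id2aMO retinas, against 39.1 and 32.9 CPM in Id2aMM retinas. The groups did not overlap, and the libraries within each group lay close together (log2 fold change −1.16, SE 0.23, adjusted p = 0.0311 by edgeR). The other, more abundant kif3a transcript did not pass, at 46.9 and 42.2 CPM in id2aMO retinas and 42.3 and 29.4 CPM in Id2aMM retinas (log2 fold change 0.31, SE 0.249, adjusted p = 0.461 by edgeR). It shares most of its reads with other transcripts, and with the reads of kif3a summed the log2 fold change was −0.24 (adjusted p = 0.531 by edgeR).

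The entry KIF3A (1 of 2) (ENSDARG00000009850) had 9.54 and 9.30 CPM in id2aMO retinas and 23.1 and 18.3 CPM in Id2aMM retinas. It also fell (log2 fold change −1.13, SE 0.25, adjusted p = 0.0377 by edgeR). Both copies of KIF3C, a motor subunit that pairs with KIF3A in neurons, fell as well.

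KIF3C (1 of 2) (ENSDARG00000017162, chromosome 20) was at 1.24 and 1.31 CPM in id2aMO retinas and at 8.74 and 4.12 CPM in Id2aMM retinas. The id2aMO libraries were nearly alike, and both Id2aMM libraries were higher (log2 fold change −2.33, SE 0.41, adjusted p = 0.0262 by edgeR). The log2 fold change was −1.67 without Id2aMM replicate 1. Its paralog kif3c (ENSDARG00000079500, chromosome 17) was at 2.05 and 5.44 CPM in id2aMO retinas and at 14.3 and 12.8 CPM in Id2aMM retinas. Here id2aMO replicate 1 was the lowest library (log2 fold change −1.84, SE 0.43, adjusted p = 0.0440 by edgeR, and −2.71 without id2aMO replicate 2).

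The remaining kinesin-2 motor subunit gene kif3b did not pass, at 17.0 and 16.4 CPM in id2aMO retinas and 26.9 and 19.2 CPM in Id2aMM retinas (log2 fold change −0.47, SE 0.25, adjusted p = 0.278 by edgeR). The log2 fold changes of the dynein-2 genes did not pass either: DYNC2H1, the heavy chain, −0.10 (SE 0.28, adjusted p = 0.857 by edgeR), dync2li1, the light intermediate chain, −0.38 (SE 0.33, 0.503), and dync2i1 0.13 (SE 0.40, 0.861). The homodimeric kinesin-2 gene kif17 was too low to be tested, at 0.0310 RPKM in id2aMO retinas and 0.0205 RPKM in Id2aMM retinas. RPKM values, which are corrected for transcript length and library size, are the deposited scores divided by 1000. They allow levels of different genes to be compared, except where many reads are shared with other transcripts, as each shared read counts in full.

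None of the 12 tested intraflagellar transport genes with an ift name passed with edgeR, with DESeq2, which called 15.9% of all genes, or with limma on the deposited scores, which called 9.42%. At an unadjusted p under 0.05 edgeR had 2 lower and 1 higher. Their median log2 fold change was −0.38, beside −0.06 over all genes tested. Both id2aMO libraries lay below both Id2aMM libraries for 8 of the 12 (66.7%, beside 33.9% of all genes). They lay above both for 1 (8.33%, beside 31.8% of all genes). In IFT-B, the complex of outward trains, ift80 was at 1.07 and 1.25 CPM in id2aMO retinas and at 2.29 and 2.33 CPM in Id2aMM retinas (log2 fold change −0.99, SE 0.38, adjusted p = 0.139 by edgeR). The value of ift20, an IFT-B protein that also sits at the Golgi, was −0.61 (SE 0.24, adjusted p = 0.144 by edgeR), from 12.5 and 14.6 CPM in id2aMO retinas and 19.2 and 22.03 CPM in Id2aMM retinas. Both genes thus separated the groups without passing.

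The Rab-like GTPase gene ift27 pointed the other way, at 3.79 and 2.68 CPM in id2aMO retinas and 2.08 and 1.19 CPM in Id2aMM retinas (log2 fold change 0.98, SE 0.40, adjusted p = 0.162 by edgeR). The core subunit ift46 was at 5.20 and 3.99 CPM in id2aMO retinas and at 8.01 and 6.44 CPM in Id2aMM retinas (log2 fold change −0.65, SE 0.28, adjusted p = 0.181 by edgeR). Per length, IFT74, which binds tubulin together with IFT81, was the most abundant of the genes with an ift name, at 34.9 and 31.7 RPKM in id2aMO retinas and 32.5 and 24.2 RPKM in Id2aMM retinas. Its groups overlapped (log2 fold change 0.30, SE 0.30, adjusted p = 0.567 by edgeR). Of IFT-A, the complex of return trains, ift140 was at 10.7 and 13.3 CPM in id2aMO retinas and at 14.1 and 14.1 CPM in Id2aMM retinas (log2 fold change −0.23, SE 0.24, adjusted p = 0.578 by edgeR). IFT43 was at most 0.470 CPM in any library and its groups overlapped.

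Of the 9 BBS genes and arl6, 2 fell (22.2%, beside 5.70% of all genes) and 0 rose. All 9 had a negative log2 fold change, and the median was −0.66. The BBSome subunit gene bbs5 (ENSDARG00000039827, chromosome 9) stood at 2.19 and 3.10 CPM in id2aMO retinas, against 7.50 and 7.42 CPM in Id2aMM retinas. The 2 Id2aMM libraries were nearly equal, and both id2aMO libraries were lower (log2 fold change −1.49, SE 0.30, adjusted p = 0.0317 by edgeR). The subunit gene bbs7 (ENSDARG00000059911, chromosome 14) was at 5.94 and 6.60 CPM in id2aMO retinas and at 13.2 and 17.8 CPM in Id2aMM retinas (log2 fold change −1.30, SE 0.27, adjusted p = 0.0333 by edgeR). Both of its transcripts were called. The second bbs5 transcript did not pass, with −1.27 (SE 0.488, adjusted p = 0.139 by edgeR).

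The other BBSome subunits with a bbs name were less far from 0 and did not pass: the log2 fold change was −0.83 for bbs2 (SE 0.26, adjusted p = 0.0931 by edgeR), −0.45 for bbs4 (SE 0.32, 0.409), −0.34 for bbs1 (SE 0.31, 0.519) and −0.13 for bbs9 (SE 0.34, 0.834). Among BBSome subunits outside the name rule, ttc8 had 0.35 (adjusted p = 0.543 by edgeR) and bbip10 had −0.83 (0.118). The chaperonin-like genes bbs10 and bbs12, whose proteins help to assemble the BBSome, had −0.20 and −0.66, and their groups overlapped. The GTPase arl6 recruits the BBSome to membranes and was at 24.2 and 28.1 CPM in id2aMO retinas and at 41.3 and 46.3 CPM in Id2aMM retinas (log2 fold change −0.74, SE 0.22). It did not pass (adjusted p = 0.0792 by edgeR), but did with DESeq2 (adjusted p = 0.0450). Of the counts of its 2 transcripts, 17.6% and 15.8% were left when a read that hits several transcripts was divided among them.

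All 6 genes of the arl3, arl13 and rp2 group had a negative log2 fold change, with a median of −1.18. Of them 2 fell (33.3%, beside 5.70% of all genes). The product of arl3 releases lipid-anchored proteins from their carriers inside the cilium, and the product of rp2, mutated in human X-linked retinitis pigmentosa, switches arl3 off. The rp2 gene (ENSDARG00000044339, chromosome 6) was at 1.76 and 3.57 CPM in id2aMO retinas and at 9.61 and 8.48 CPM in Id2aMM retinas. The groups did not overlap, and id2aMO replicate 1 was the lowest library (log2 fold change −1.75, SE 0.37, adjusted p = 0.0355 by edgeR, and −2.35 without id2aMO replicate 2). Neither arl3, the partner of rp2, nor arl13b, whose product switches arl3 on, passed.

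The arl3 gene was at 32.2 and 32.8 CPM in id2aMO retinas and at 49.2 and 48.6 CPM in Id2aMM retinas, a separation of the groups with little spread inside them (log2 fold change −0.59, SE 0.21, adjusted p = 0.118 by edgeR). The value of arl13b was −0.60 (SE 0.27, adjusted p = 0.198 by edgeR). A paralog of arl13b, arl13a (ENSDARG00000052575, chromosome 14), had 0 and 0.417 CPM in id2aMO retinas and 3.78 and 3.78 CPM in Id2aMM retinas. These CPM stand for 0 and 23 counts in id2aMO retinas and 187 and 209 counts in Id2aMM retinas (log2 fold change −4.07, SE 0.90, adjusted p = 0.0397 by edgeR). Without id2aMO replicate 1 it was −3.15, and without id2aMO replicate 2 a fold cannot be given, as the remaining library had 0 counts. The call was lost with DESeq2 (adjusted p = 0.231). The transcript given here was the least abundant of 4 arl13a transcripts, and the others did not pass (adjusted p = 0.0502 to 0.0532 by edgeR). The most abundant was at 0.0239 and 2.05 CPM in id2aMO retinas and at 21.7 and 13.9 CPM in Id2aMM retinas. With the reads of arl13a summed, the log2 fold change was −4.06 (adjusted p = 0.0993 by edgeR).

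The transcript of arl3l1, a further arl3 relative, with the smallest p was at 0.382 and 4.10 CPM in id2aMO retinas and at 12.6 and 7.42 CPM in Id2aMM retinas. The groups did not overlap, but the id2aMO libraries lay far apart, and the gene did not pass (log2 fold change −2.14, SE 0.80, adjusted p = 0.133 by edgeR). Its log2 fold change was −1.27 without id2aMO replicate 1. Without id2aMO replicate 2 it was −4.70. The other, more abundant arl3l1 transcript was at 109 and 106 CPM in id2aMO retinas and at 170 and 113 CPM in Id2aMM retinas. It did not pass (log2 fold change −0.40, SE 0.249, adjusted p = 0.342 by edgeR). With the reads of arl3l1 summed, the log2 fold change was −0.46 (adjusted p = 0.274 by edgeR).

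**Figure D2:**
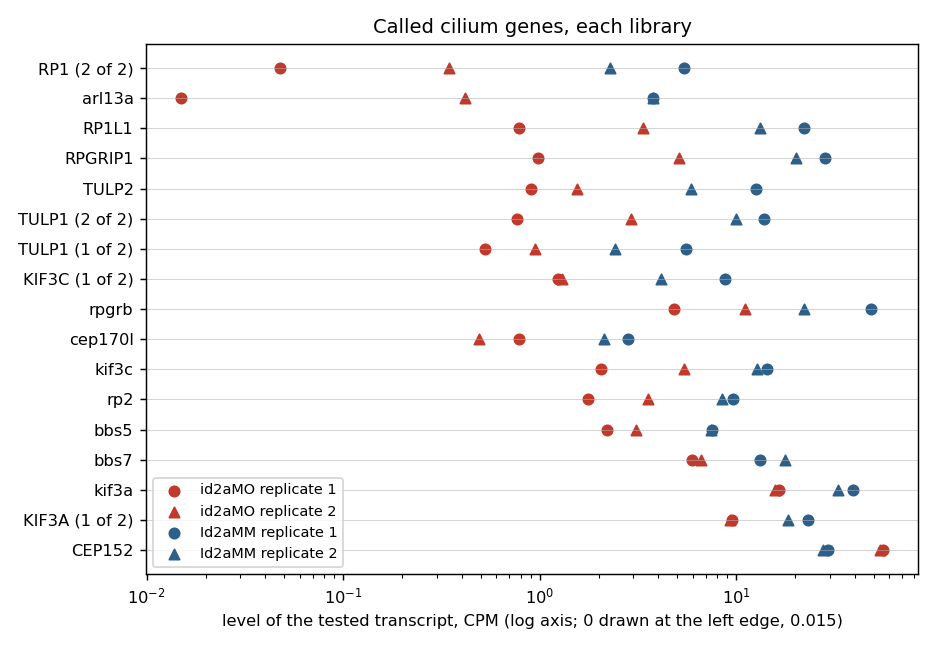
Level of the tested transcript in CPM (x axis, log scale, with a level of 0 drawn at the left edge) of the 17 called cilium genes in each of the 4 libraries; red marks id2aMO and blue Id2aMM retinas, circles replicate 1 and triangles replicate 2. The groups do not overlap in any of the 17, and CEP152 is the 1 gene with the id2aMO libraries to the right. In 13 of the 16 genes that fell, id2aMO replicate 1 is the lowest library. It is below id2aMO replicate 2 in 75.8% of all 1189 genes called lower.

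Of 14 tested transition zone genes 2 fell (14.3%, beside 5.70% of all genes) and 0 rose. Both that fell are parts of the RPGR module of the photoreceptor connecting cilium. RPGRIP1 (ENSDARG00000076055, chromosome 24), which anchors RPGR there, was at 0.978 and 5.09 CPM in id2aMO retinas and at 28.3 and 20.2 CPM in Id2aMM retinas. Both id2aMO libraries were lower, and id2aMO replicate 1 was the lowest (log2 fold change −2.98, SE 0.63, adjusted p = 0.0367 by edgeR). It was −2.23 without id2aMO replicate 1 and −4.63 without id2aMO replicate 2. Its relative rpgrip1l, which is expressed in many ciliated tissues, had overlapping groups and −0.35 (SE 0.29, adjusted p = 0.487 by edgeR).

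Zebrafish have 2 genes named for RPGR, the gene most often mutated in human X-linked retinitis pigmentosa. The copy rpgrb (ENSDARG00000057074, chromosome 11) was at 4.79 and 11.0 CPM in id2aMO retinas and at 48.8 and 22.2 CPM in Id2aMM retinas (log2 fold change −2.16, SE 0.48, adjusted p = 0.0399 by edgeR). It was −2.88 without id2aMO replicate 2 and −1.46 without Id2aMM replicate 1. The copy rpgra was at 2.19 and 0.924 CPM in id2aMO retinas and at 0.930 and 0.742 CPM in Id2aMM retinas, with overlapping groups (log2 fold change 0.89, SE 0.54, adjusted p = 0.324 by edgeR). The difference between the copies was not tested.

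The core of the transition zone gave no further call. Among the MKS module genes b9d2 was at 3.17 and 3.48 CPM in id2aMO retinas and at 6.82 and 6.04 CPM in Id2aMM retinas, separated but not passed (log2 fold change −0.95, SE 0.27, adjusted p = 0.0720 by edgeR). Its partner b9d1, the most abundant of the transition zone genes per length at 11.7 and 14.3 RPKM in id2aMO retinas and 13.6 and 17.2 RPKM in Id2aMM retinas, had −0.31 (SE 0.25, adjusted p = 0.454 by edgeR). The scaffold gene cep290, mutated in human Leber congenital amaurosis, was at 50.6 and 45.7 CPM in id2aMO retinas and at 88.7 and 50.2 CPM in Id2aMM retinas, so that 1 Id2aMM library stood above the other 3 (log2 fold change −0.53, SE 0.29, adjusted p = 0.284 by edgeR). Of the others, NPHP4, TCTN1, TCTN2, cc2d2a and mks1 lay between −0.39 and 0.34.

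Tubby family proteins bind phosphoinositides, and some of them deliver membrane receptors to cilia. Of its 7 tested genes 3 fell (42.9%, beside 5.70% of all genes), 0 rose, and the median was −1.15. TULP2 (ENSDARG00000062902, chromosome 12) had 0.907 and 1.54 CPM in id2aMO retinas and 12.7 and 5.92 CPM in Id2aMM retinas (log2 fold change −2.91, SE 0.45, adjusted p = 0.0231 by edgeR), the smallest p of the cilium genes. All 5 of its transcripts were called, at −2.52 to −3.93. Without Id2aMM replicate 1 its log2 fold change was −2.24.

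TULP1 is a photoreceptor protein needed to move rhodopsin to the outer segment in mice. Its copy TULP1 (2 of 2) (ENSDARG00000075295, chromosome 23) was at 0.763 and 2.90 CPM in id2aMO retinas and at 13.8 and 9.99 CPM in Id2aMM retinas, with id2aMO replicate 1 the lowest. The log2 fold change was −2.68 (SE 0.54, adjusted p = 0.0331 by edgeR), −2.02 without id2aMO replicate 1 and −3.95 without id2aMO replicate 2. All 6 of its transcripts were called, at −2.68 to −3.00.

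The other copy, TULP1 (1 of 2) (ENSDARG00000078210, chromosome 6), was at 0.525 and 0.942 CPM in id2aMO retinas and at 5.52 and 2.42 CPM in Id2aMM retinas (log2 fold change −2.42, SE 0.52, adjusted p = 0.0368 by edgeR, and −1.69 without Id2aMM replicate 1). Its more abundant transcript did not pass (log2 fold change −1.07, adjusted p = 0.0674 by edgeR). With the reads of TULP1 (1 of 2) summed, the log2 fold change was −1.38 (adjusted p = 0.0635 by edgeR). TULP3 works with IFT-A in many cell types and stood on the other side of 0, at 5.08 and 4.04 CPM in id2aMO retinas and 2.79 and 2.098 CPM in Id2aMM retinas. Its groups did not overlap, and it did not pass (log2 fold change 0.90, SE 0.32, adjusted p = 0.118 by edgeR). TUB, tulp4 and TULP4 (2 of 2) had −0.16, −0.42 and −1.15, and none of them passed.

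RP1 and RP1L1 carry doublecortin domains and bind the microtubules of the photoreceptor axoneme. Of 3 tested genes 2 fell (66.7%, beside 5.70% of all genes), and 0 rose. RP1L1 (ENSDARG00000089458, chromosome 17) was at 0.787 and 3.37 CPM in id2aMO retinas and at 22.1 and 13.2 CPM in Id2aMM retinas (log2 fold change −3.07, SE 0.60, adjusted p = 0.0303 by edgeR). It was −2.37 without id2aMO replicate 1 and −4.48 without id2aMO replicate 2. RP1 (2 of 2) (ENSDARG00000086360, on a scaffold not placed on a chromosome) was at 0.0477 and 0.344 CPM in id2aMO retinas and at 5.40 and 2.28 CPM in Id2aMM retinas (log2 fold change −4.20, SE 0.76, adjusted p = 0.0267 by edgeR).

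The id2aMO levels of RP1 (2 of 2) stand for 2 and 19 counts, so that its fold is imprecise. It was −6.25 without id2aMO replicate 2, −3.45 without id2aMO replicate 1 and −3.44 without Id2aMM replicate 1. RP1 (1 of 2), at 0.358 and 0.308 CPM in id2aMO retinas and 0.647 and 0.669 CPM in Id2aMM retinas, did not pass (log2 fold change −0.98, SE 0.59, adjusted p = 0.320 by edgeR).

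The 22 numbered centrosomal genes other than cep290 had a median log2 fold change of 0.22, against −0.39 over all 81 tested cilium genes. The groups were separated upward in 11 of them (50.0%, beside 31.8% of all genes) and downward in 5 (22.7%, beside 33.9%). Of the 22, 1 was called higher and 1 lower (4.55% each, beside 2.37% and 5.70% of all genes). CEP152 (ENSDARG00000075725, chromosome 25), the scaffold that recruits the kinase PLK4 at the start of centriole duplication, was at 56.1 and 54.2 CPM in id2aMO retinas and at 29.2 and 27.8 CPM in Id2aMM retinas. The libraries of each group lay close together, and the groups did not overlap (log2 fold change 0.95, SE 0.21, adjusted p = 0.0397 by edgeR). Its call was lost without any 1 of the 4 libraries, at edgeR adjusted p of 0.0571 to 0.160, and its log2 fold change stayed between 0.92 and 1.01.

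The capping protein gene cep97, a partner of CP110 at the centriole end, was at 19.6 and 20.6 CPM in id2aMO retinas and at 11.6 and 8.07 CPM in Id2aMM retinas, close to the threshold (log2 fold change 1.03, SE 0.27, adjusted p = 0.0554 by edgeR). It passed with DESeq2 (adjusted p = 0.00801). The other, more abundant cep97 transcript did not pass (log2 fold change 0.61, adjusted p = 0.152 by edgeR), and 18.3% of its counts were left when shared reads were split. With the reads of cep97 summed, the log2 fold change was 0.70 (adjusted p = 0.122 by edgeR). The gene cep44 was at 2.93 and 2.65 CPM in id2aMO retinas and at 0.910 and 1.52 CPM in Id2aMM retinas (log2 fold change 1.19, SE 0.40, adjusted p = 0.104 by edgeR).

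The 1 centrosomal gene that fell was cep170l (ENSDARG00000058892, chromosome 6), related to the subdistal appendage gene CEP170, at 0.787 and 0.489 CPM in id2aMO retinas and 2.81 and 2.13 CPM in Id2aMM retinas (log2 fold change −1.96, SE 0.45, adjusted p = 0.0435 by edgeR). With limma on the deposited scores it did not pass (adjusted p = 0.0539). Its remaining transcript had 0.34 (SE 0.371, adjusted p = 0.597 by edgeR), but only 3.85% of that transcript's counts were left when shared reads were split. With the reads of cep170l summed, the log2 fold change was −0.58 (adjusted p = 0.287 by edgeR). CEP170 (1 of 2) was at 19.97 and 29.7 CPM in id2aMO retinas and at 46.5 and 38.4 CPM in Id2aMM retinas and did not pass (log2 fold change −0.77, SE 0.26, adjusted p = 0.108 by edgeR).

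Markers of 2 cell states also differed between the groups. Photoreceptor markers, 41 genes that are not among the cilium genes, summed to 92.8 and 255 CPM in id2aMO retinas and to 776 and 542 CPM in Id2aMM retinas. Of the 38 tested, 18 fell (47.4%, beside 5.70% of all genes) and 0 rose, with a median of −2.23. The rod opsin gene rho was at 0 and 0.109 CPM in id2aMO retinas and at 49.0 and 47.2 CPM in Id2aMM retinas. In each id2aMO library 5 of the 41 had 0 counts, and in each Id2aMM library 0 of them did. The order of the libraries in the summed markers, from id2aMO replicate 1 through id2aMO replicate 2 and Id2aMM replicate 2 up to Id2aMM replicate 1, was also that of 12 of the 16 cilium genes that fell (75.0%), and of 60.5% of all 1189 genes called lower.

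Proliferation markers, 23 genes of cycling progenitors, summed to 7365 and 8075 CPM in id2aMO retinas and to 4821 and 5944 CPM in Id2aMM retinas. Of these 2 rose, mcm7 and ccnd1 (8.70%, beside 2.37% of all genes), and 0 fell. The groups were separated upward in 17 (73.9%, beside 31.8% of all genes). The part of either cell state in the values of the cilium genes was not tested.

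The tissue label was checked with 16 genes of retinal identity, all of which were detected and tested. Of these 2 rose, rx1 among them (12.5%, beside 2.37% of all genes). The genes isl1 and pou4f2 fell (12.5%, beside 5.70% of all genes), and 12 did not pass. Skin and lens genes also differed. Of 7 keratinocyte genes 5 fell (71.4%, beside 5.70% of all genes). The 7 summed to 564 and 205 CPM in id2aMO retinas and to 1826 and 1913 CPM in Id2aMM retinas. Of 9 lens genes 7 rose (77.8%, beside 2.37% of all genes). The 9 summed to 1639 and 908 CPM in id2aMO retinas and to 244 and 366 CPM in Id2aMM retinas. The part of skin and lens genes in the cilium genes' values was not tested.

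**Figure D3:**
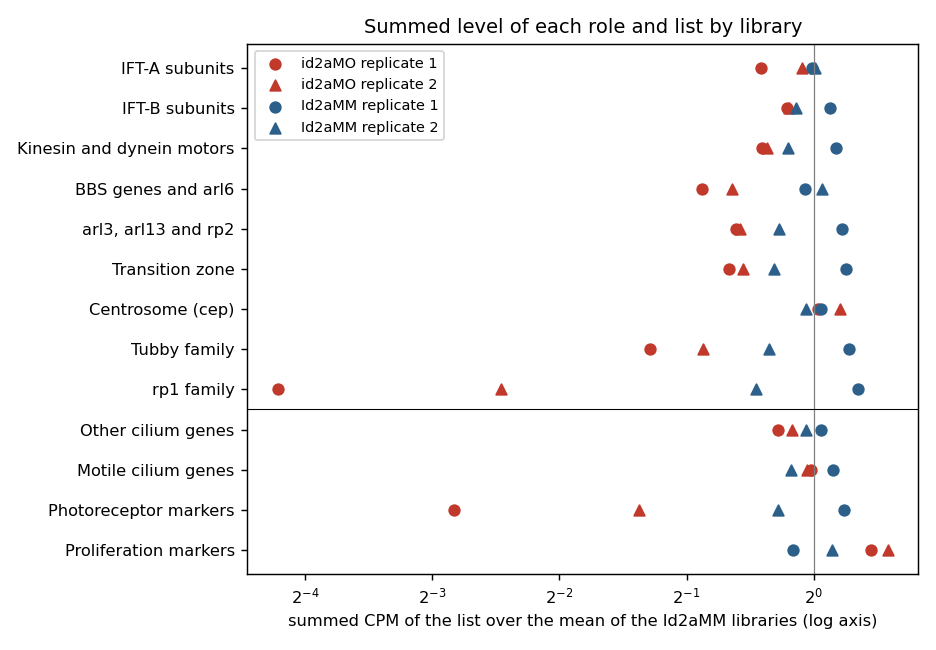
Summed CPM of each role of the cilium genes (above the line) and of 4 marker lists (below it) in each library, divided by the mean of the Id2aMM libraries (x axis, log scale); red marks id2aMO and blue Id2aMM retinas, circles replicate 1 and triangles replicate 2. The rp1 family, at 1.19 and 4.02 CPM in id2aMO retinas and 28.2 and 16.2 CPM in Id2aMM retinas, and the photoreceptor markers lie furthest to the left, and the proliferation markers lie to the right.

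Further genes of the same organelle outside the name rule were taken from a general list of cilium genes. Of the 76 tested, 2 fell (2.63%, beside 5.70% of all genes) and 0 rose (beside 2.37%) by edgeR, and the median was −0.25; 13 were lower and 6 higher at an unadjusted p under 0.05, and DESeq2, with 15.9% of all genes called, called 4 lower and 3 higher. Among those that fell, unc119b, which encodes a carrier of lipid-anchored cargo that arl3 unloads, was at 11.1 and 15.1 CPM in id2aMO retinas and at 31.9 and 33.4 CPM in Id2aMM retinas (log2 fold change −1.31, SE 0.25, adjusted p = 0.0285 by edgeR).

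Genes of motile cilia, which the neural retina is not known for, had overlapping sums in the groups, at 101 and 99.1 CPM in id2aMO retinas and 114 and 90.9 CPM in Id2aMM retinas over 46 genes. Of the 37 tested, 1 fell (2.70%, beside 5.70% of all genes) and 0 rose. The 1 was capsla, at 0.596 and 0.290 CPM in id2aMO retinas and 2.16 and 2.08 CPM in Id2aMM retinas (log2 fold change −2.27, SE 0.50, adjusted p = 0.0399 by edgeR). The median log2 fold change of the 37 was −0.38, beside −0.39 over the cilium genes and −0.06 over all genes tested. The groups were separated downward in 16 (43.2%, beside 33.9% of all genes) and upward in 4 (10.8%, beside 31.8%).

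Levels per length spread widely among the cilium genes. The most abundant transcript of each gene had a median of 2.99 RPKM in id2aMO retinas and 4.42 RPKM in Id2aMM retinas, within ranges of 0.0300 to 277 RPKM and 0.0205 to 330 RPKM. In id2aMO retinas 15 genes were below 1 RPKM and 14 above 10 RPKM, and in Id2aMM retinas 9 and 16. The top value, that of arl3l1, comes mostly from shared reads: of the counts of that transcript 6.70% were left after splitting. The same holds for kif3a, cep97 and arl6, also above 10 RPKM, with 3.38%, 18.3% and 15.8% left.

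Counting a shared read in full or splitting it made little difference to most fold changes. Of 160 cilium gene transcripts with at least 100 counts over the 4 libraries, 26 kept over 95% of their counts when split and 7 kept under 20%. Of 159 fitted both ways, 145 moved by at most 0.2 in log2 fold change and 5 by more than 0.5, all 5 to lower values. In the abundant arl3l1 transcript the log2 fold change was −0.40 with full counts and −1.91 with split counts (adjusted p = 0.0385 by edgeR for split counts). In the kif3a transcript that kept 3.38% of its counts it was 0.31 with full counts and −0.93 with split counts (adjusted p = 0.112 by edgeR for split counts).

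RP1 (1 of 2) had −0.98 with full counts and −2.15 with split counts (adjusted p = 0.0447 by edgeR), and the TULP1 (1 of 2) transcript ENSDART00000112344 had −1.07 with full counts, a value that moved by −0.92 with split counts (0.0249). With split counts 19 cilium genes were called, 17 of them lower, beside 12.1% of all genes, and 16 of the 17 genes called with full counts were among them. The exception was KIF3A (1 of 2) (adjusted p = 0.0518 by edgeR). When the reads of all transcripts of a gene were summed first, 3.89% of all genes and 5 cilium genes were called, all lower: KIF3C (1 of 2), bbs7, TULP2, RP1L1 and RP1 (2 of 2).

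**Figure D4:**
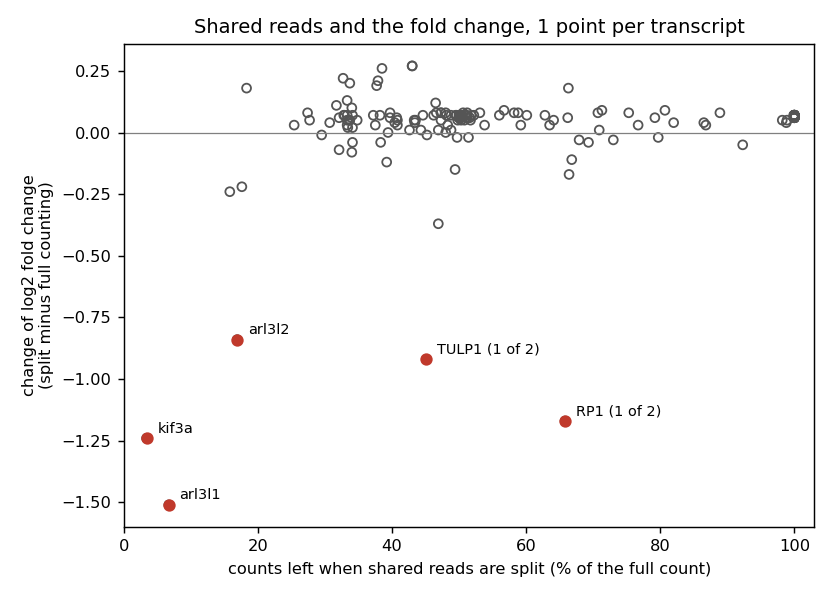
Change of the log2 fold change when a read is divided among its transcripts instead of counted in full for each (y axis, split minus full), against the percentage of counts left after splitting (x axis), 1 point for each of 159 cilium gene transcripts with at least 100 counts. The 5 named points moved by more than 0.5, all downward, and 145 transcripts moved by at most 0.2.

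In the authors' deposited table, which rests on scores made from the counts of both mates and on DESeq, 8.89% of 43155 transcripts had an adjusted p under 0.05. The authors' deposited table holds 167 transcripts of cilium genes, of which 25 passed, 22 lower and 3 higher, from 16 genes. Of these genes 14 were also called by edgeR here. The authors' deposited table adds cep97 (log2 fold change 1.08, adjusted p = 0.0115) and cep44 (1.18, 0.0348), both higher. It does not pass KIF3C (1 of 2) (−2.22, 0.148 in the authors' deposited table), TULP1 (1 of 2) or cep170l.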

How the data were processed

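Per the file headers, each library's deposited table counts the alignments to every transcript, once for 1 mate and once for the pair. Beside them stand the authors' estimated counts, where a read with several hits is divided among them; these were rounded to whole numbers before testing. The authors also deposited a table of scores, 1000 times the RPKM and rounded: in 100% of 17492 transcripts checked they were proportional to the both-mate counts within 0.5%. The authors' deposited comparison covers 43155 transcripts with adjusted p-values and log2 fold changes; per the submitters' processing notes it was made with DESeq. The aligner, its settings and the build are not given in the labels or headers, and chromosomes are the authors' Zv9 names.

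The counts of 1 mate, each alignment counted in full, went into edgeR 4.0.16 (R 4.3.3), with its filterByExpr filter, TMM scaling, the quasi-likelihood F-test and no block. Benjamini-Hochberg adjustment covered 37012 transcripts of 20875 genes. The SE is the absolute log2 fold change over the square root of F. Alternatives used DESeq2 1.42.0, limma 3.58.1 on log2 of score + 100 (0.1 RPKM), other filters and scalings, a replicate block, summed, both-mate or split reads, and each library left out. Of the methods, only the edgeR fit was tested on simulated counts. These had the mean levels and library sizes of these data and 1 spread for all transcripts.

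The members and lists were chosen with earlier results of these data known. The text names each called gene, up to 4 genes per role or list by p and the most abundant gene per length of each role. Others named were chosen after their values were seen. Symbols came from the authors' table; endings such as (1 of 2) are its own. Results for some genes are not reported here.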

Additional observations from a re-analysis of the deposited data

How the results depend on the processing

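The full counts gave 17 called cilium genes, 1 higher and 16 lower, 32 called transcripts, 2 called genes on the general cilium list and a median log2 fold change of −0.39. With DESeq2, without a filter, with RLE scaling, with split reads and with limma 2 cilium genes were higher, cep97 being the second. DESeq2 called 7 genes of the general list, and the fit without a filter 6. With reads summed per gene 5 cilium genes were called, 5 lower and 0 higher, and 12 of the 17 were lost. Leaving out 1 library gave 0 to 15 called cilium genes, 0 to 15 lower and 0 higher, 0 to 32 transcripts, 0 to 8 genes of the general list and medians of −0.52 to −0.24. Leaving out 1 library, the log2 fold change of IFT43 ranged from −1.19 to 0.50 and that of IFT74 from −0.05 to 0.78, against −0.61 and 0.30 with all libraries; without Id2aMM replicate 2 both changed direction, and neither passed. The cause of these changes was not tested. A replicate block gave 18 called cilium genes, 2 of them higher, and 4 of the general list. Of all genes it called 691 higher and 1633 lower, beside 494 and 1189 without the block. The difference between replicates 1 and 2 of a group was hardly correlated between the 2 groups (−0.0471 over 29118 transcripts). With 1 such difference a group, this cannot settle whether the numbers pair libraries, and the labels do not say. No other cilium gene named by the rule changed direction in any of the 13 alternatives in which it was fitted. The promoter motif planned for these genes was not run. Transcripts with few counts, such as those of RP1 (2 of 2) and arl13a in id2aMO retinas, limit the precision of their folds.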

Other observations

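Regulators of ciliary genes and a pathway that signals through the cilium were measured too. Of 10 tested transcription factor genes of the ciliary programme, edgeR called 0; 1 was lower and 2 were higher at an unadjusted p under 0.05, DESeq2 called 1 higher and limma called 0. The forkhead gene foxn4, a factor of retinal progenitors, was at 25.1 and 44.5 CPM in id2aMO retinas and at 15.0 and 16.6 CPM in Id2aMM retinas (log2 fold change 1.14, SE 0.30, adjusted p = 0.0605 by edgeR). The RFX gene rfx1a was at 8.99 and 14.2 CPM in id2aMO retinas and at 20.9 and 20.4 CPM in Id2aMM retinas (log2 fold change −0.83, SE 0.28, adjusted p = 0.103 by edgeR), and rfx2 stood on the other side of 0 (0.85, SE 0.33, 0.140).

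Hedgehog signals in vertebrates pass through the primary cilium. Of 18 tested Hedgehog pathway genes 1 rose (5.56%, beside 2.37% of all genes) and 0 fell, and the groups were separated upward in 10 (55.6%, beside 31.8% of all genes). The coreceptor gene cdon was at 158 and 125 CPM in id2aMO retinas and at 57.0 and 52.1 CPM in Id2aMM retinas (log2 fold change 1.37, SE 0.22, adjusted p = 0.0248 by edgeR). Its relative boc had 0.80 (SE 0.37, adjusted p = 0.209 by edgeR), and the transcription factor genes gli2a and gli2b had 0.57 (SE 0.23, 0.160) and 0.68 (SE 0.28, 0.162).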
